A study of Mus musculus with 6 samples.

Results

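Trans-synaptic adhesion molecules are membrane proteins that join the presynaptic and postsynaptic sides of a synapse across the cleft. Here they were a set of 32 genes from 10 families, namely neurexins, LAR-type phosphatases, neuroligins, Lrrtm, Lrfn (also called Salm), Slitrk, Elfn, Flrt, calsyntenins and Il1rapl1. They were taken by gene symbol from the probe sets annotated with exactly 1 symbol. All 32 of 22180 genes with such a probe set were found, on 34 of the 41345 probe sets of the array, and all 32 were among the 15619 genes bright enough to be tested. Membership goes by symbol and family, with no measured value in the rule. The set was, however, chosen with earlier results of these data known, so its shares below cannot count as an excess.

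Whole retinas of male mice at postnatal day 17 were measured in 2 groups of 3. The Atrx conditional knockout samples had the genotype Chx10Cre+/-;Atrx flox/y, in which Cre under the Chx10 promoter, active in retinal progenitors, deletes floxed Atrx, a chromatin remodeller gene on the X chromosome. The wildtype samples were littermates of the genotype Chx10Cre-/-;Atrx flox/y. Both groups therefore carried the floxed allele, and the Cre transgene and the loss of Atrx cannot be told apart. Each sample was the retina of both eyes. The series' design text places the peak loss of amacrine and horizontal cells of the conditional knockout at this age, and the comparison addresses gene expression at that stage. Values are RMA log2 expression values, which the authors deposited. Signals of different probe sets do not rank transcripts by amount, so genes are compared only by their differences between genotypes. P-values measure the spread between these 6 samples, since no label identifies the animals.

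Neurexins and LAR-type phosphatases are mostly presynaptic hubs, and each binds several families of postsynaptic ligands. Neuroligins and Lrrtm proteins bind neurexins, and Slitrk proteins, some Lrfn proteins and Il1rapl1 bind the phosphatases. In the retina such pairs help to place receptors at the contacts of photoreceptors with bipolar cells and of amacrine cells with their partners in the inner plexiform layer.

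No adhesion gene passed the threshold of limma's test (adjusted p under 0.05 by Benjamini-Hochberg over the 15619 genes). Over all genes 0.826% did so (129 genes; 0.48% higher and 0.346% lower), and the smallest adjusted p of an adhesion gene was 0.099, for Nrxn3. At an unadjusted p under 0.05 there were 10 of 32 adhesion genes, 8 of them lower and 2 higher in knockout retina, beside 13.5% of all genes (6.5% lower and 6.99% higher). The 3 knockout values lay wholly on one side of the 3 wildtype values for 11 of 32, which was 8 lower and 3 higher, beside 20.3% of all genes (9.58% lower and 10.7% higher). The median log2 change, knockout minus wildtype, was -0.042 for the adhesion genes and 0.0027 for all genes, with 20 of 32 and 49.1% of genes below 0. The sign of that median rested on knockout 3: without it the median was 0.0032 and 15 of 32 genes lay below 0, while without knockout 2 the median was -0.12 and 21 of 32 lay below 0.

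The changes were small. The median fold of the adhesion genes in either direction was 1.10, and the largest was 1.33, for Ptprf. All 32 of the unadjusted 95% intervals lay between -0.67 and 0.61 on the log2 scale, so none reached beyond a 1.59-fold difference. For 22 genes the interval held 0. In simulated data for the same 15619 genes 45 of 100 genes given a log2 change of 0.5 were called, and 87 of 100 given one of 1, so a change of the size seen here could be missed. With 3 arrays against 3 the exact permutation test of a single gene cannot go below 0.1, the value it gave for each of the 11 genes whose groups did not overlap.

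**Figure D1:**
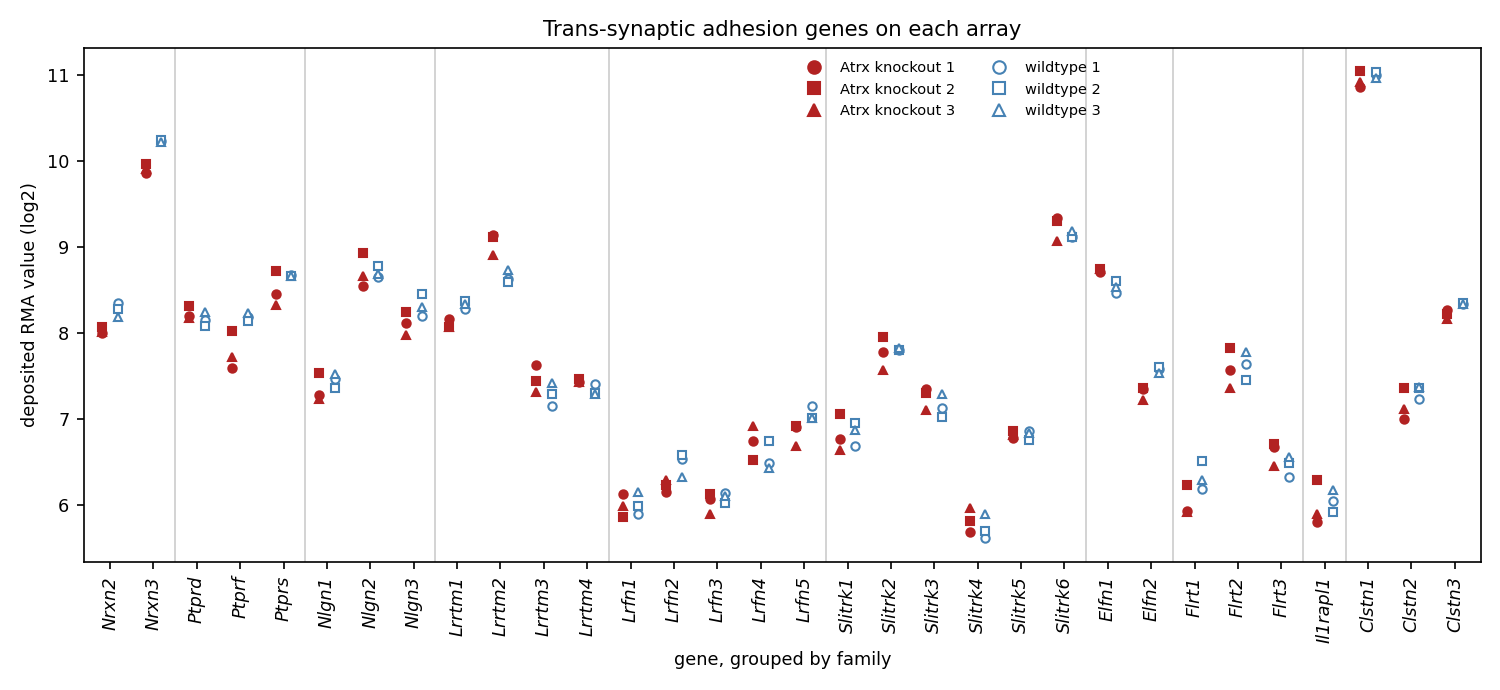
Deposited RMA value (log2) of each of the 32 adhesion genes on each array, knockout arrays as filled red symbols to the left of wildtype arrays as open blue symbols, with families separated by grey lines. Nrxn3, Ptprf, Elfn2 and Lrrtm2 are among the 11 genes in which the genotypes do not overlap, while the 6 Slitrk genes overlap throughout.

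**Figure D2:**
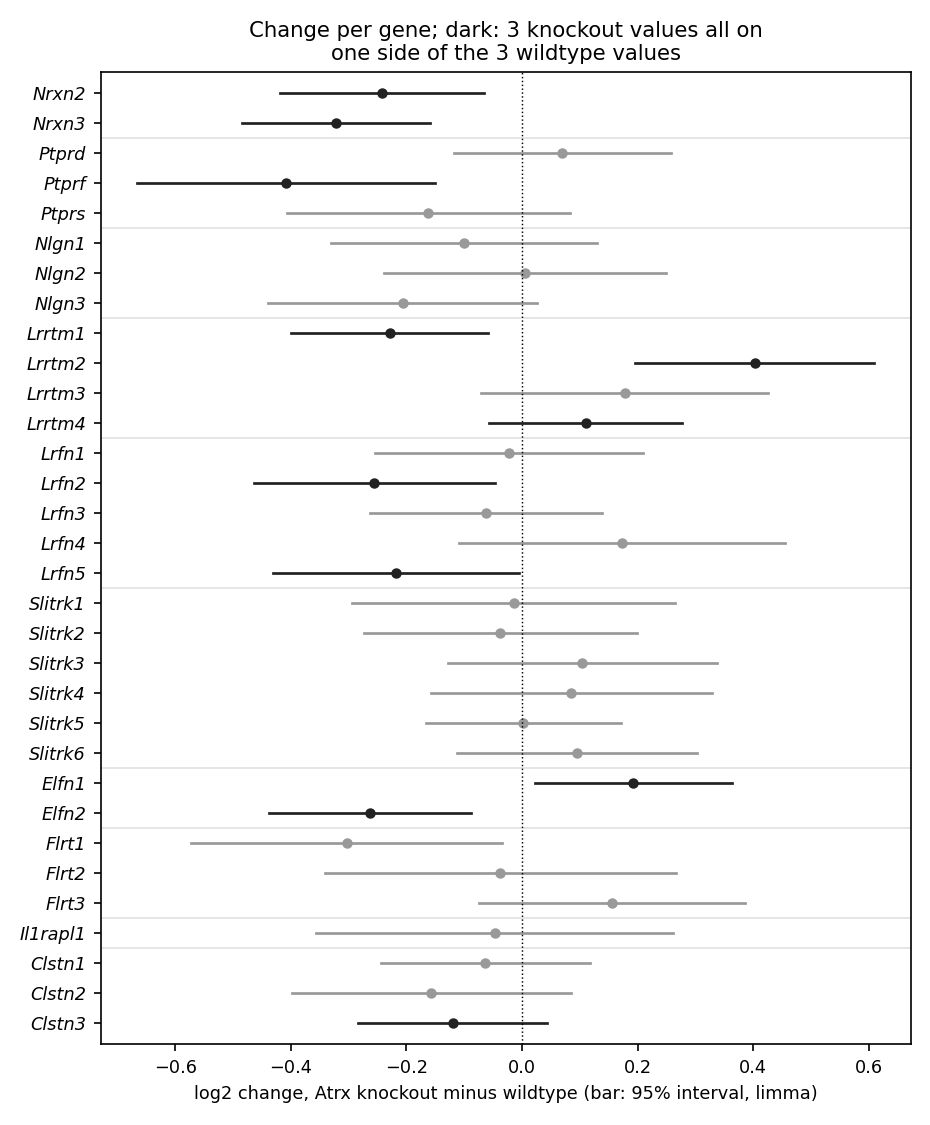
Log2 change of each adhesion gene, Atrx knockout minus wildtype, with its unadjusted 95% interval from limma, in the same family order. Black marks the 11 genes whose genotypes do not overlap, and all intervals lie between -0.67 and 0.61.

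Both neurexins of the set were lower in knockout retina. Nrxn3 had 9.86, 9.96 and 9.90 on the knockout arrays, against 10.23, 10.25 and 10.22 on the wildtype arrays. The groups did not overlap, and the wildtype arrays lay close together, with means of 9.91 ± 0.05 in knockout and 10.23 ± 0.01 in wildtype (SD, n = 3 each). The log2 change was -0.32 (SE 0.071), a 1.25-fold difference with an adjusted p of 0.099 in limma. Under an intensity trend with robust spread this change had an adjusted p of 0.026, while over all 17 refits the adjusted p ran from 0.026 to 0.38.

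Nrxn2 was measured by 2 probe sets. The brighter had 8.00, 8.07 and 8.01 in knockout, against 8.35, 8.28 and 8.18 in wildtype. On the dimmer one the knockout arrays read 6.58, 6.65 and 6.76, against wildtype arrays at 6.90, 6.96 and 6.82. Neither probe set overlapped between genotypes, and their log2 changes were alike at -0.24 and -0.23. Both come from the same 6 RNA samples, so the second is not a further replicate. In limma the brighter had an adjusted p of 0.23 among genes.

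Ptprf encodes LAR, a receptor phosphatase of axons and presynaptic terminals. Its values were 7.59, 8.02 and 7.72 on the knockout arrays, against 8.19, 8.14 and 8.23 on the wildtype arrays. All 3 knockout values were lower, and knockout 2 came closest to wildtype. The log2 change of -0.41 (SE 0.11) was the most negative among the 32 and had an adjusted p of 0.17 in limma. Without knockout 2 the change was -0.53 and passed the threshold (adjusted p = 0.044), which it did in no other refit. The related Ptprs had a log2 change of -0.16 and Ptprd of 0.07, with overlapping genotypes and adjusted p-values of 0.55 and 0.75. Without knockout 2 and wildtype 1, the arrays rich in lens RNA, the change of Ptprs was -0.27.

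The sequence upstream of the start site is shown for Ptprf, as the gene with the most negative change, from the RefSeq-based table of build GRCm38.p6. It is the 250 bases before the start at chr4:118291398-118291647 on the minus strand, 5′ to 3′, with GC boxes (GGGCGG on either strand) in capitals.
Ptprf: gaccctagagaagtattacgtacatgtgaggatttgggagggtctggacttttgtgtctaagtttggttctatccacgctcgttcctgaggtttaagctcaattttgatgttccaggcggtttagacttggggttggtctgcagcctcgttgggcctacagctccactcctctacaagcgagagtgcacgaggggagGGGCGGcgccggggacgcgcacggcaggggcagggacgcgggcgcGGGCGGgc
The RefSeq span of the Ptprf gene ends at 118291405, so the last bases of the window lie inside that span. The window holds 2 GC boxes, the second of them in that last part. Such a box lay in 9 of the 31 windows matched to 24 adhesion genes (29%), beside 32.7% of the 32851 windows of that length in the table.

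Among the neurexin ligands the neuroligins overlapped between genotypes. Nlgn3, found at excitatory and inhibitory synapses, had 8.11, 8.24 and 7.97 in knockout retina, against 8.19, 8.45 and 8.30 in wildtype retina. Its log2 change was -0.21 (SE 0.10, adjusted p = 0.42 in limma), and -0.33 without the lens-rich arrays. Nlgn1, the neuroligin of excitatory synapses, was at -0.10, and Nlgn2, that of inhibitory synapses, at 0.0052, with 95% intervals of -0.33 to 0.13 and -0.24 to 0.25.

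The Lrrtm genes, whose products are postsynaptic leucine-rich repeat proteins, did not share one direction. Lrrtm2 was higher, with 9.14, 9.11 and 8.90 on the knockout arrays, against 8.62, 8.59 and 8.73 on the wildtype arrays. Its genotypes did not overlap, and its log2 change of 0.40 (SE 0.090) was the most positive among the 32, with an adjusted p of 0.10 in limma. An intensity trend and robust spread took that to 0.034, within a range of 0.034 to 0.38 over the 17 refits. Lrrtm1 was lower, with 8.16, 8.07 and 8.06 in knockout, against 8.27, 8.37 and 8.33 in wildtype. Here too the genotypes did not overlap (log2 change -0.23, SE 0.074, adjusted p = 0.24). Lrrtm4 read 7.43, 7.46 and 7.43 in knockout, against 7.40, 7.30 and 7.29 in wildtype, a small gap without overlap (log2 change 0.11, adjusted p = 0.55). Its other probe set stayed near 2.4 on all arrays and was too dim to test. Lrrtm3 overlapped, at 0.18 (adjusted p = 0.52).

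**Figure D3:**
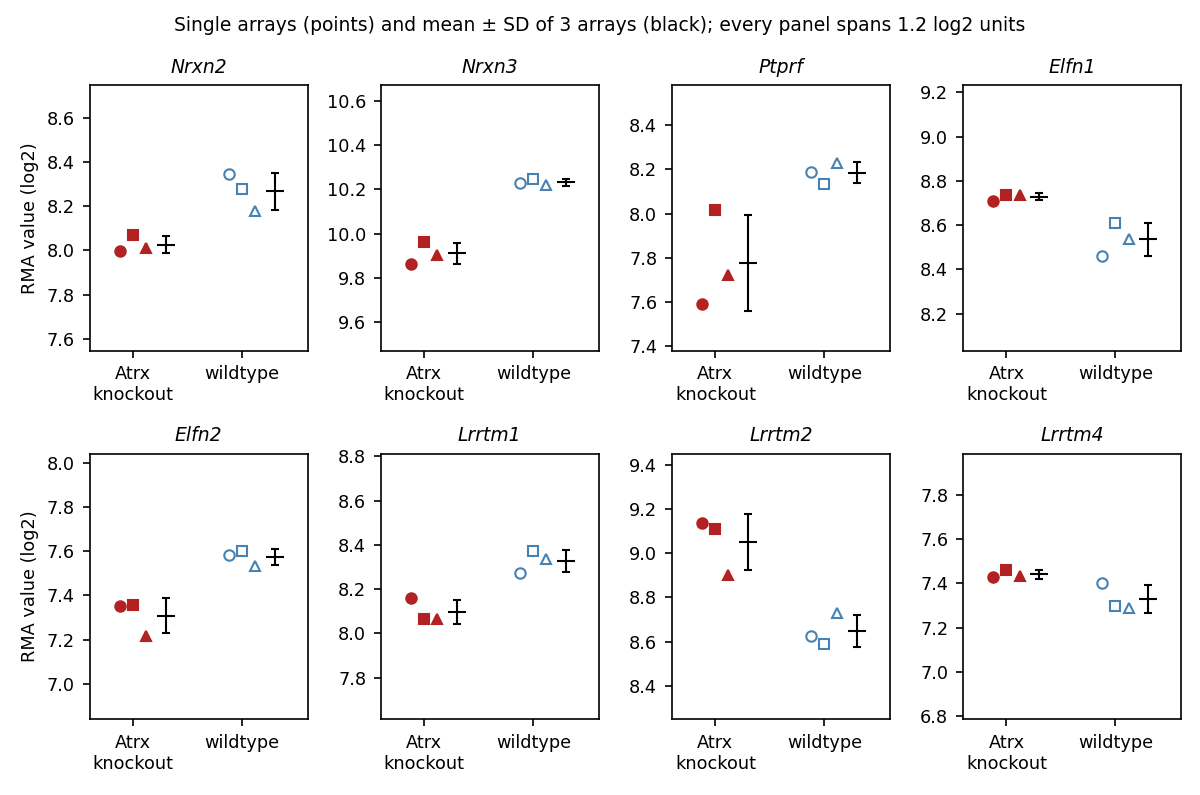
RMA values (log2) of 8 adhesion genes on single arrays, with mean ± SD of 3 arrays in black, knockout left of wildtype (circle, square and triangle are replicates 1, 2 and 3). Nrxn2, Nrxn3, Ptprf, Elfn2 and Lrrtm1 are lower in knockout retina and Elfn1, Lrrtm2 and Lrrtm4 higher, each without overlap.

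Elfn1 and Elfn2 are postsynaptic-type leucine-rich repeat proteins that bind group III metabotropic glutamate receptors. In mouse photoreceptors Elfn1 and Elfn2 take part in recruiting the receptor mGluR6 on ON bipolar cells. Elfn1 was higher, at 8.71, 8.74 and 8.74 in knockout retina, against 8.46, 8.61 and 8.54 in wildtype retina. The knockout arrays lay close together and did not overlap with wildtype (log2 change 0.19, SE 0.074, adjusted p = 0.31 in limma). Elfn2 went the other way, with 7.35, 7.36 and 7.22 in knockout, against 7.58, 7.60 and 7.53 in wildtype. Its genotypes did not overlap either (log2 change -0.26, SE 0.076, adjusted p = 0.19). None of the 4 group III receptor genes was called by limma. Grm6, the gene of mGluR6 itself, was at -0.02 (SE 0.079, adjusted p = 0.92) and Grm4 at -0.07 (adjusted p = 0.74). Grm8 had 6.31, 6.50 and 6.02 in knockout retina, against 6.65, 6.68 and 6.69 in wildtype retina, without overlap (log2 change -0.40, SE 0.12, adjusted p = 0.20). Grm7 was at 0.33 (SE 0.15, adjusted p = 0.39), with 7.28, 7.79 and 7.27 in knockout, against 7.31, 6.98 and 7.06 in wildtype, and overlapped.

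The upstream windows of both Elfn genes are shown because these paralogs had changes of opposite sign. They are the 250 bases before the start sites listed for GRCm38.p6, with GC boxes in capitals. For Elfn1 they lie at chr5:139907616-139907865 on the plus strand, and for Elfn2 at chr15:78718772-78719021 on the minus strand. The RefSeq span of the Elfn1 gene begins at 139907591, so its window lies inside that span. The Elfn2 span ends at 78718771, right beside its window, so the windows are not placed alike.
Elfn1: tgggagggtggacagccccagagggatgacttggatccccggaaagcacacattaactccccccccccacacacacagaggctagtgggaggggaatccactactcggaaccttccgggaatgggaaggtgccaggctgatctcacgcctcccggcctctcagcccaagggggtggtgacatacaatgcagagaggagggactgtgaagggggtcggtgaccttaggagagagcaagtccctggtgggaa
Elfn2: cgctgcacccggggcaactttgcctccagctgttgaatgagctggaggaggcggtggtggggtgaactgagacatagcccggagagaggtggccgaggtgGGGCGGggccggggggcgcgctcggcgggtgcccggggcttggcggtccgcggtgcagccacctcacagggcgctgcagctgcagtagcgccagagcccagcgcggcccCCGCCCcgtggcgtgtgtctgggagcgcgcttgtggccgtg
The Elfn2 window has 2 GC boxes and 73.6% G and C, while the Elfn1 window has 60.8% G and C and no GC box. TAATCC, the core bound by the photoreceptor factor CRX, was searched on both strands as well. It lay in neither of them, and in 1 of the 31 adhesion gene windows (3.23%) beside 6.25% of all windows.

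The Lrfn genes encode postsynaptic proteins, several of which bind PSD-95 inside the cell. Lrfn2 had 6.16, 6.23 and 6.29 in knockout retina, against 6.53, 6.58 and 6.33 in wildtype retina. The lowest wildtype array lay only just above the highest knockout array (log2 change -0.26, SE 0.091, adjusted p = 0.28 in limma). Lrfn5 read 6.91, 6.92 and 6.68 in knockout, against 7.15, 7.01 and 7.01 in wildtype, again without overlap (-0.22, SE 0.093, adjusted p = 0.36). Lrfn1, Lrfn3 and Lrfn4 overlapped, with log2 changes of -0.02, -0.06 and 0.17.

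Slitrk proteins are ligands of the LAR-type phosphatases. All 6 of their genes overlapped between genotypes, with log2 changes from -0.04 for Slitrk2 to 0.10 for Slitrk3, and none had an adjusted p below 0.68. Slitrk6, whose loss in humans causes deafness and myopia, had 9.34, 9.30 and 9.07 in knockout retina, against 9.12, 9.12 and 9.18 in wildtype retina. Knockout 3 lay below all 3 wildtype arrays and the other two knockout arrays above them. Its log2 change was 0.09, with a 95% interval of -0.11 to 0.30.

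Flrt proteins bind latrophilins and Unc5 receptors. Flrt1 had 5.93, 6.23 and 5.91 on the knockout arrays, against 6.19, 6.51 and 6.29 on the wildtype arrays. Knockout 2 reached into the wildtype range (log2 change -0.30, SE 0.12, adjusted p = 0.32 in limma), and without knockout 2 and wildtype 1 the log2 change was -0.47. Flrt2 and Flrt3 overlapped, at -0.04 and 0.16. Il1rapl1, a receptor linked to intellectual disability in humans, was at -0.05 with a 95% interval of -0.36 to 0.26.

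All 3 calsyntenins, membrane proteins with cadherin repeats, had values below 0. Clstn3 read 8.27, 8.22 and 8.16 in knockout retina, against 8.33, 8.35 and 8.33 in wildtype retina. The genotypes did not overlap, but the log2 change was only -0.12 (SE 0.071, adjusted p = 0.51 in limma). Clstn1 had 10.86, 11.04 and 10.92 in knockout, against 11.00, 11.03 and 10.97 in wildtype, and overlapped (-0.06). Clstn2 was at -0.16 and overlapped as well, and was at -0.30 without the lens-rich arrays.

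A list of extracellular partners and related genes held called genes. Besides ligands of the adhesion proteins it took in genes such as Cadm1, Lrit1 and Nyx. Of 35 tested, 2 fell (5.71%, beside 0.826% of all genes) and none rose, and 24 of 35 had log2 changes below 0 with a median of -0.037. Like the adhesion set, this list and the scaffold list below were chosen with earlier results of these data known. Their shares cannot count as an excess either. Mdga1, whose product binds neuroligins and blocks their contact with neurexins, had 5.61, 5.96 and 5.76 in knockout retina, against 6.34, 6.46 and 6.45 in wildtype retina. It fell by 0.64 on the log2 scale (SE 0.10), a 1.56-fold difference (adjusted p = 0.033 in limma). Ntrk3, the neurotrophin receptor TrkC and a ligand of Ptprs, read 7.39, 7.51 and 7.44 in knockout, against 7.88, 7.85 and 7.92 in wildtype. It fell by 0.44 (SE 0.073, adjusted p = 0.043). Neither gene overlapped between genotypes. Both calls were lost without any single array but knockout 2, with adjusted p-values from 0.086 to 0.17 for Mdga1 and from 0.11 to 0.18 for Ntrk3. Without both arrays rich in lens RNA they were 0.057 and 0.15.

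Ntng2, the membrane-anchored netrin-G2, was higher at 8.29, 8.32 and 8.34 in knockout retina, against 7.91, 8.01 and 7.92 in wildtype retina. The log2 change of 0.37 (SE 0.072) had no overlap and an adjusted p of 0.068 in limma. The neurexin ligand Nxph2 was lower, with 5.88, 5.86 and 5.63 in knockout, against 6.17, 6.15 and 6.31 in wildtype (-0.42, SE 0.095, adjusted p = 0.11). Over this partner list 10 of 35 genes had an unadjusted p under 0.05, of which 9 were lower, beside 13.5% of all genes (6.5% lower).

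**Figure D4:**
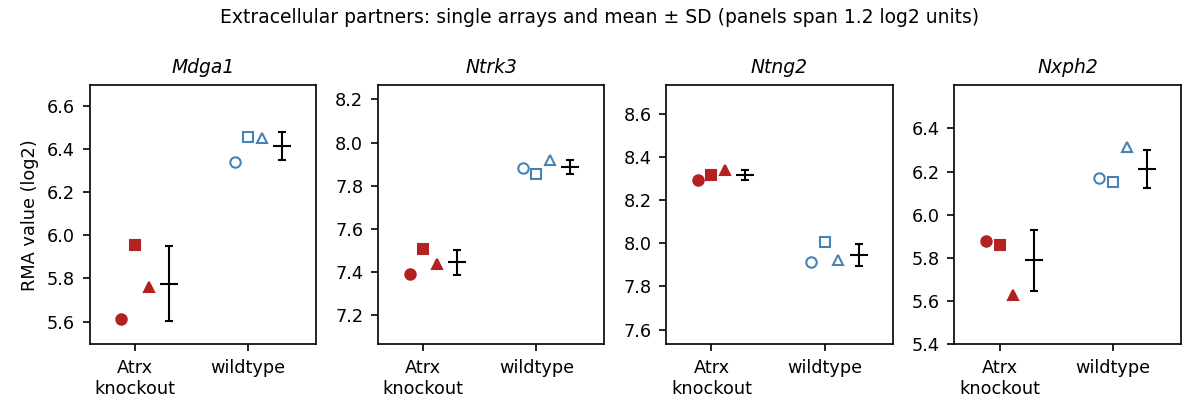
RMA values (log2) of the 4 genes with the smallest p-values on the extracellular partner list, on single arrays and as mean ± SD of 3 arrays, knockout left of wildtype. Mdga1, Ntrk3 and Nxph2 are lower in knockout retina and Ntng2 is higher, without overlap.

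Scaffold proteins that anchor adhesion molecules inside the cell had no called gene among 27 tested (0.826% of all genes were called), with 18 below 0 and a median log2 change of -0.076. At an unadjusted p under 0.05 in limma there were 6, of which 4 were lower and 2 higher (22.2%, beside 13.5% of all genes). Ppfia2, which encodes liprin-alpha2 and binds LAR-type phosphatases, was at 0.31 (SE 0.096, adjusted p = 0.21). Shank1, a postsynaptic scaffold, was at -0.27 (adjusted p = 0.26), Dlgap4 at -0.30 (0.30) and Lin7c at 0.17 (0.32).

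Some measures of the samples moved with genotype or with single arrays. Atrx itself was at -0.53 (SE 0.12, adjusted p = 0.12 in limma) without overlap, and where its probes lie against the floxed part is unknown here. Array values correlated at 0.975 to 0.993. The mean of 11 amacrine markers ran from 7.28 to 7.58 on the knockout arrays, against 7.80 to 7.90 on the wildtype arrays, and that of 7 horizontal cell markers from 7.34 to 7.55, against 7.69 to 7.76. Tfap2b was in both lists and, at -0.52, had the most negative change of the horizontal cell markers. The genotypes did not overlap for 6 of the amacrine and 4 of the horizontal cell markers (54.5% and 57.1%, beside 20.3% of all genes). All markers in these means passed the brightness filter, and their part in the adhesion gene values was not tested. In whole retina, fewer cells of a type and less RNA per cell cannot be told apart. The mean of 10 photoreceptor markers (11.25 to 11.36 in knockout, 11.30 to 11.42 in wildtype) and of 8 bipolar markers (8.90 to 9.02, against 8.98 to 9.03) overlapped. Single markers in these means moved in both directions. In each of these 2 lists 3 markers did not overlap, 2 higher and 1 lower (30% and 37.5%, beside 20.3% of all genes). The lower ones were Opn1sw at -0.32 and Prkca at -0.38.

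Lens RNA was high on 1 array of each genotype, although the labels state that the lens was removed. Averaged over 13 lens genes, knockout 2 had 10.33 and wildtype 1 had 11.49, and the remaining 4 arrays had 5.64 to 6.12. Knockout 2 also had the highest of the 3 knockout values for 21 of the 32 adhesion genes, beside 40.7% of all genes. Knockout 3 had the lowest knockout value for 18 of them, beside 37.8% of all genes. Wildtype 1 was the highest wildtype array for 6 adhesion genes, beside 26.3% of all genes. It was the lowest for 13 of 32, near the 37.4% of all genes. The part of lens RNA in these orders was not tested. Without knockout 2 and wildtype 1 the median log2 change of the adhesion genes was -0.13, against -0.0023 for all genes. No adhesion gene was called (0.23% of all genes were). An unadjusted p under 0.05 was then reached by 9 adhesion genes, 8 lower and 1 higher, beside 12.8% of all genes. Of these 9, 6 had also reached it with all 6 arrays, and the others were Nlgn3, Ptprs and Clstn2. Nrxn2, Elfn1, Lrfn2 and Lrfn5 no longer reached it, with log2 changes of -0.23, 0.15, -0.23 and -0.21. Lrrtm2 was then at 0.36. All but Nlgn2 (31 of 32) kept the sign of their change. With the lens mean as a covariate and all 6 arrays kept, the median was -0.035, 9 adhesion genes had an unadjusted p under 0.05 beside 12.7% of all genes, and none was called. Ptprf was then at -0.40 and Flrt1 at -0.30.

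**Figure D5:**
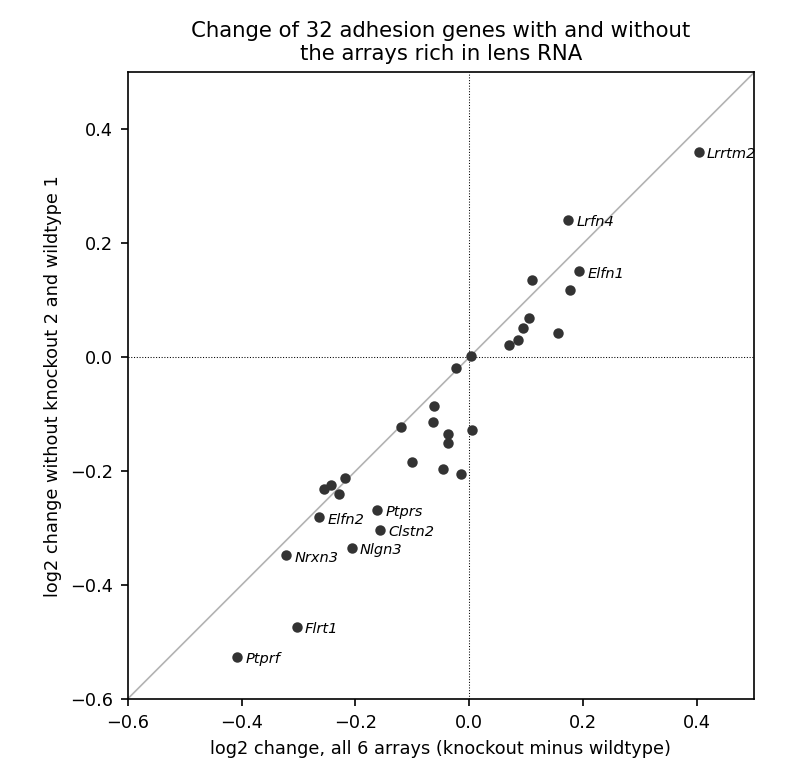
Log2 change (knockout minus wildtype) of the 32 adhesion genes over all 6 arrays on the horizontal axis and without knockout 2 and wildtype 1 on the vertical axis, with the line of equal change in grey. Most points lie below the line, among them Flrt1 at -0.30 and -0.47 and Ptprf at -0.41 and -0.53.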

How the data were processed

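Total RNA from retina was hybridised to Affymetrix mouse gene arrays, starting from 100 ng per sample, per the labels' protocols. The authors deposited 1 log2 value for each probe set and array. Per the submitters' processing notes these were computed by RMA (background correction, quantile normalization, summary of probes). No version, software or genome build is given in the sources used here. Quantile normalization hides a change in total RNA, and background compresses folds of dim probe sets.

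Of 41345 probe sets, 23521 had exactly 1 symbol. Genes were kept at a log2 value of at least 5 on at least 3 arrays, by their brightest probe set (15619 genes). Genotype was the only term in limma 3.58.1 (R 4.3.3; lmFit, eBayes, 2-sided), adjusted by Benjamini-Hochberg over all genes. The number of arrays limits the precision (median SE 0.095). Values on each array are given for genes with an unadjusted p under 0.05 or no overlap, for the 4 brightest and, beyond this rule, for Nlgn3, chosen after its values were seen. Of each partner list the 4 genes with the smallest p are named, and besides them the group III glutamate receptor genes, chosen after their values were seen. The genes, lists, tests and alternatives were chosen with earlier results of these data known. Some partner genes are not analysed here. The procedure was tested on simulated data, with 6 false calls. Upstream windows leave out the bases after the start site, and 8 genes matched no window. Figures were drawn with matplotlib 3.10.9.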

Additional observations from a re-analysis of the deposited data

How the results depend on the processing

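All 14 adhesion genes given array by array under the rule kept the sign of their change in all 17 refits. No adhesion gene was called with all 6 arrays and the settings above. The count was 2 with an intensity trend and robust spread (Nrxn3 and Lrrtm2), 1 at an adjusted p under 0.1, and from 0 to 1 with single arrays left out (Ptprf, without knockout 2). The number at an unadjusted p under 0.05 ran from 6 without wildtype 2 to 12 without knockout 2. The median log2 change of the adhesion genes ran from -0.12 without knockout 2 to 0.0032 without knockout 3, and was -0.13 without both lens-rich arrays. Of the partners 2 were called. That became 4 with the intensity trend, 1 with the lens covariate or a fold of at least 1.5, and 0 without the brightness filter, with all probe sets, without both lens-rich arrays and with the replicate number as a block. With single arrays left out it ran from 0 to 2, being 2 without knockout 2. The 129 genes called in all became 74 without the brightness filter and likewise 74 with all probe sets, 209 with a floor of 6, 282 with the intensity trend, 36 without the lens-rich arrays and 288 at an adjusted p under 0.1. Leaving out single arrays gave 25 (without wildtype 2) to 141 (without knockout 2). With the replicate number as a block 68 were called. No array correlated best with the array of its own number (r of deviations -0.27, -0.38 and -0.058). The lens-rich arrays carry different numbers, so these correlations cannot show whether samples of one number belong together. The labels link the groups only by that number. For these shifts the cause was not tested, except that array omission leaves fewer samples and the filters change the number of genes tested.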
